A study of Danio rerio with 15 samples.

Results

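The genes described here encode the nuclear part of respiratory complexes II to V and of cytochrome c. They were taken by symbol: sdha, sdhc and sdhd genes with their relatives, uqcr genes, cyc1, cycsb, cox4 to cox8 genes and atp5 genes, without sdhb, and each gene was read by its brightest probe set. The rule found 47 of the 8793 genes named on the array, 6 of complex II, 8 of complex III, 1 of cytochrome c, 14 of complex IV and 18 of complex V. By their symbols, sdhaf2, sdhaf3 and sdhaf4 are assembly factors, atp5if1a and atp5if1b are inhibitors of the ATP synthase and cox7a2l is a supercomplex factor, so the label "complex genes" holds for these only in a wide sense. The other members are subunits. The alpha subunit atp5fa1 is annotated to a probe set together with gcdha and is not counted, and cox4i1, cox6a2, cox7a1 and cox8b are not analysed here.

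Whole-brain RNA of adult zebrafish of the strain labelled Transgenic Mosaic 1, all 1 year old and sexually mature, was hybridised to Affymetrix arrays. Each array is titled by 1 brain number and was taken as 1 fish. The 4 groups were females given food with added sodium selenite (5.6 ppm selenium, 4 fish), females fed the control diet (1.4 ppm, 3 fish), males fed the selenite diet (4 fish) and males fed the control diet (4 fish), each for 14 days. The series' design text gives 8 fish per diet with equal numbers of the sexes, and 1 more female on the control diet is not analysed here. All values below are log2 expression values, so a difference of 1 is a factor of 2.

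Mitochondria make ATP by passing electrons from food to oxygen. Succinate dehydrogenase (complex II) takes electrons from the citric acid cycle, the cytochrome bc complex (III) hands them to cytochrome c, and cytochrome c oxidase (IV) gives them to oxygen. Complexes III and IV pump protons out of the matrix, and ATP synthase (V) uses their return to make ATP. Neurons spend much of this ATP on ion pumping and synaptic transmission, and several subunits exist as tissue isoforms or as duplicated fish genes.

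Array medians lay between 7.22 and 7.33, and any pair of arrays correlated between 0.979 and 0.992 across probe sets. The brain label was checked on 8 neuron markers, whose mean was 12.31 to 12.48 in every fish. The arrays of males on selenium stood apart in markers of other tissues. The mean of 21 skeletal muscle markers was 9.32, 7.04, 7.53 and 6.31 in these 4 males, against 6.07 to 6.41 in males on the control diet, 6.36 to 6.78 in females on selenium and 5.82 to 6.18 in females on the control diet. The mean of 14 retina and lens markers was 8.18 and 7.43 in male selenium fish 2 and 4, 6.23 in female control fish 2 and 6.02 in female selenium fish 2, and at most 5.48 in the other fish. The members' medians are therefore also given without the 4 fish of highest retina means and without male selenium fish 1 and 3, the highest in muscle markers. Male selenium fish 2, with a muscle mean above that of every fish of the other groups, was left out only in the first of these settings. The material is bulk tissue, so fewer cells of a type and less RNA per cell cannot be told apart.

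The 47 genes gave bright and steady signals. Their median level was 12.1 (range 8.32 to 13.4), against 7.93 over all genes. Their median residual SD between fish of a group was 0.0809, against 0.168 over all genes. The lowest SD was that of sdha, the catalytic flavoprotein of complex II, at 0.0246, and the highest that of atp5mea, a small membrane subunit of ATP synthase, at 0.635. The 95% confidence interval of a member's diet difference ran, at the median, 0.162 above and below the estimate in females and 0.15 in males.

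None of the 47 genes passed the threshold for diet in limma (adjusted p under 0.05), in either sex, over both sexes or in the difference between the sexes. None of all 8793 genes passed either, so percent called was 0 in these comparisons. In the values as deposited, most members lay slightly lower on selenium in females and slightly higher in males, and the female direction depended on the scaling of the arrays. In females, 36 of 47 were lower on selenium (76.6%, against 49.1% of all genes), and the median of their log2 differences was -0.046, or 0.015 with 28 members higher when arrays were centred on their medians, which added 0.061 to every gene. Against the median of all genes, the members stood at -0.049 under either scaling. In males, 40 of 47 were higher on selenium (85.1%, against 49.1% of all genes), with a median of 0.060, and of 0.041 with arrays centred. At an unadjusted p under 0.05, 3 members were lower and 0 higher in females, where 4.5% of all genes were lower and 3.41% higher. In males 2 members were higher and 0 lower, where 2.71% of all genes were higher and 2.81% lower. These counts are as deposited and were not made with arrays centred. With arrays centred, the unadjusted limma p in females was 0.046 for uqcrfs1, 0.158 for cox4i2 and 0.276 for cox7a2l, all lower. It was 0.037 for sdhaf2, which was higher. In males it was 0.029 for uqcrc2a and 0.093 for uqcrb, both higher.

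**Figure D1:**
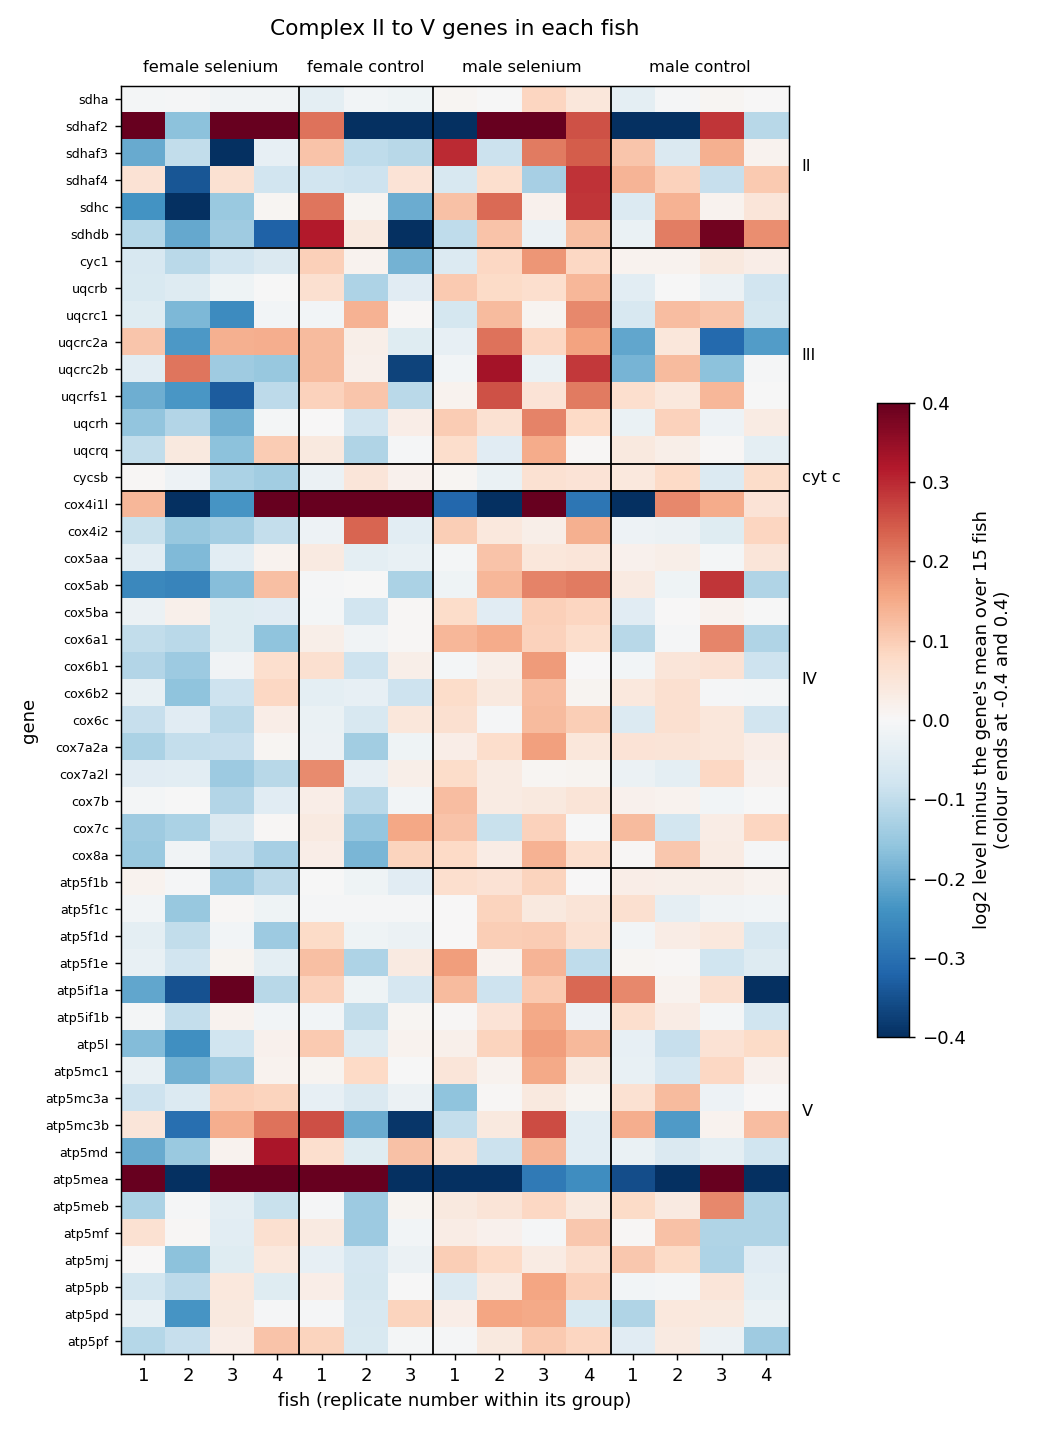
Log2 level of each of the 47 genes (vertical axis, by complex) in each of the 15 fish (horizontal axis, by group), shown as the difference from the gene's mean over all fish, with colour ending at -0.4 and 0.4. As deposited, 31, 36, 42 and 39 members stood above their own mean in the 4 males on selenium. Males on the control diet had 23, 31, 29 and 19. Females had 10, 4, 14 and 21 on selenium, against 30, 12 and 18 on the control diet.

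The shift can be followed fish by fish. The median over members of the deviation from each gene's mean was 0.027, 0.041, 0.095 and 0.065 in the 4 males on selenium, against -0.010, 0.025, 0.023 and -0.006 in the 4 males on the control diet. In these deposited values all 4 males on selenium stood above all 4 control males, the nearest by 0.027 against 0.025. With arrays centred on their medians the groups overlapped, at 0.045, 0.028, 0.074 and 0.028 in males on selenium, against -0.011, 0.085, -0.0094 and -0.012 in males on the control diet. As deposited, the median deviation was -0.050, -0.116, -0.050 and -0.007 in females on selenium, against 0.036, -0.053 and -0.011 in females on the control diet. The female groups overlapped, with selenium fish 4 above 2 of the 3 controls and selenium fish 2 lowest of all fish. With arrays centred, the females on selenium stood at 0.017, -0.084, -0.038 and 0.005, against 0.029, -0.099 and -0.049 in females on the control diet. These groups overlapped as well, and female control fish 2 was then lowest of all fish. As deposited and without female control fish 1, the median diet difference in females was -0.024, with 26 members lower. The count in females thus rests in part on that fish.

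The differences of single members were small. In females, 32 of the 47 differences were under 0.1 in size, and in males 37. The 95% interval lay within -0.25 and 0.25 for 27 members in females and 31 in males, and within -0.5 and 0.5 for 44 and 43. Only sdhaf2, cox4i1l and atp5mea, and in males also atp5if1a, had intervals that reached beyond 0.5.

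**Figure D2:**
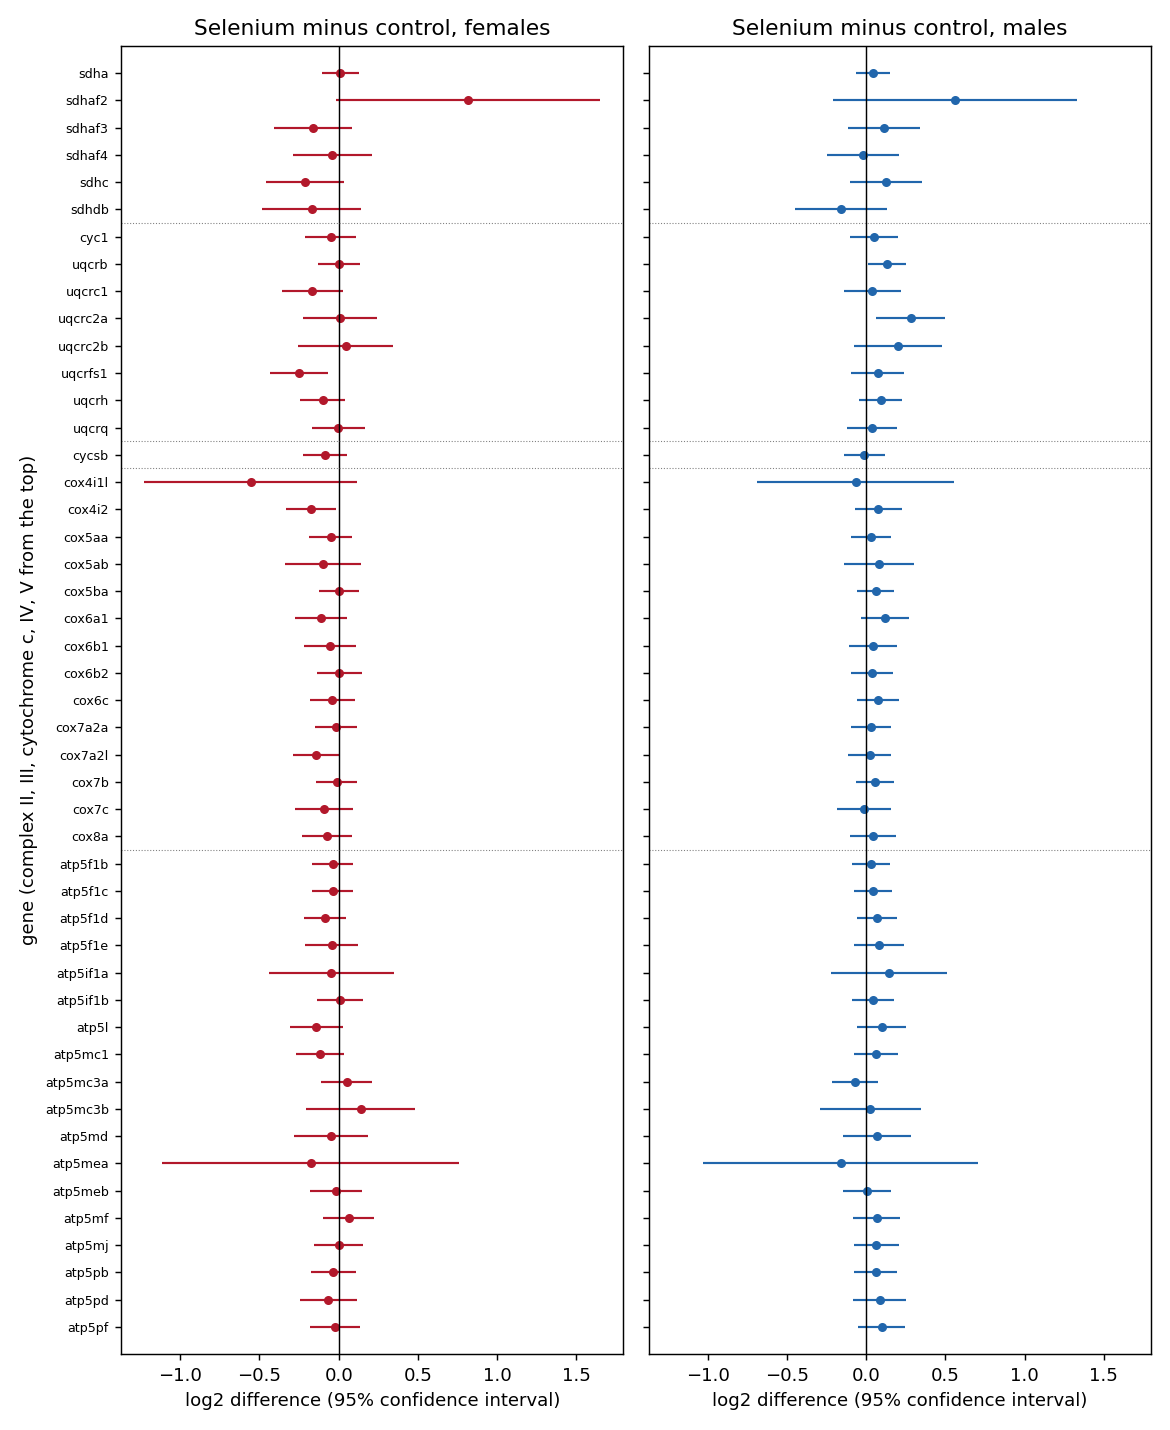
Log2 difference, selenium minus control, of each of the 47 genes in females (left) and males (right), as a point with its 95% confidence interval from limma; dotted lines part the complexes. Most points lie near 0, left of it in 36 genes in females (19 with each array centred on its median) and right of it in 40 genes in males.

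As deposited, in complex II 4 of 6 genes were lower on selenium in females (median -0.101) and 4 of 6 were higher in males (median 0.079). The flavoprotein gene sdha gave 12.12, 12.13, 12.11 and 12.11 in females on selenium, against 12.09, 12.12 and 12.11 in females on the control diet. In males it gave 12.14, 12.13, 12.22 and 12.18 on selenium, against 12.09, 12.13, 12.14 and 12.13 on the control diet. The groups overlapped in both sexes. Its log2 difference was 0.01 ± 0.05 (SE) in females and 0.04 ± 0.05 in males, and neither interval reached 0.25.

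The membrane anchor gene sdhc, whose product holds the heme and quinone site with its partner, gave 10.43, 10.23, 10.52 and 10.67 in females on selenium, against 10.88, 10.68 and 10.47 in females on the control diet. In males it gave 10.78, 10.90, 10.69 and 10.95 on selenium, against 10.61, 10.81, 10.68 and 10.72 on the control diet. The groups overlapped in both sexes. The log2 difference was -0.21 ± 0.12 in females and 0.13 ± 0.11 in males, and the difference between these effects was -0.34 ± 0.16 (adjusted p 0.595, limma). The other anchor gene, sdhdb, was on the low side of its control in both sexes, at -0.17 ± 0.15 in females and -0.16 ± 0.13 in males. It gave 8.93, 8.84, 8.90 and 8.72 in females on selenium, against 9.36, 9.08 and 8.61 in females on the control diet. Males gave 8.94, 9.16, 9.02 and 9.16 on selenium, against 9.01, 9.25, 9.43 and 9.23 on the control diet. The groups overlapped in both sexes.

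The assembly factor gene sdhaf2, whose product attaches FAD to the flavoprotein, was higher on selenium in both sexes without passing the test. It stood at 9.44, 8.57, 9.40 and 9.26 in females on selenium, against 8.95, 8.05 and 8.05 in females on the control diet. In males it stood at 7.94, 9.15, 9.69 and 8.99 on selenium, against 7.95, 7.92, 9.02 and 8.62 on the control diet. Only 1 fish of each female group lay inside the other group's range, and the males were mixed. Selenium minus control was 0.82 ± 0.39 in females, 0.56 ± 0.36 in males and 0.69 ± 0.26 over both sexes (adjusted p 0.865, limma). The male difference was 0.31 without male selenium fish 3, 0.89 without male selenium fish 1 and 2.12 with the muscle and retina list means as covariates, which gave 1.65 over both sexes. In females it was 1.25 with the gapdh measure of RNA quality as a covariate. Over all 15 fish sdhaf2 had a gap of 0.513 between 8.055 and 8.568, with 10 fish above it. The other assembly factors gave -0.16 ± 0.11 in females and 0.11 ± 0.11 in males for sdhaf3, which helps the iron-sulfur subunit mature, and -0.04 ± 0.12 and -0.02 ± 0.11 for sdhaf4, which binds the flavoprotein. The iron-sulfur subunit sdhb, outside the rule, differed by -0.25 ± 0.07 in females (adjusted p 0.440) and 0.28 ± 0.07 in males (adjusted p 0.937).

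As deposited, complex III held the members with the smallest p in both sexes. All 8 of its genes were higher on selenium in males (median 0.082), and 5 of 8 were lower in females (median -0.027). Centring arrays adds 0.061 to every gene in females, which takes the female median above 0. The Rieske iron-sulfur gene uqcrfs1, whose product passes electrons from quinol to cytochrome c1, gave 11.001, 10.96, 10.86 and 11.09 in females on selenium, against 11.29, 11.31 and 11.09 in females on the control diet. Males gave 11.21, 11.45, 11.25 and 11.40 on selenium, against 11.26, 11.24, 11.33 and 11.19 on the control diet. In females, control fish 3 lay just under the highest selenium fish and the others were apart, whereas the males overlapped widely. The log2 difference was -0.25 ± 0.08 in females (95% interval -0.43 to -0.07, adjusted p 0.504, limma) and 0.07 ± 0.08 in males.

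The core protein genes uqcrc2a and uqcrc2b, a duplicated pair, were on the high side in males. The level of uqcrc2a was 11.24, 11.49, 11.35 and 11.43 in males on selenium, against 11.06, 11.31, 10.96 and 11.05 in males on the control diet. In females it was 11.38, 11.04, 11.41 and 11.41 on selenium, against 11.39, 11.29 and 11.22 on the control diet. Of the control males, fish 2 alone lay inside the selenium range, and the female groups overlapped. Its difference in males was 0.28 ± 0.10 (95% interval 0.06 to 0.50, adjusted p 0.937, limma), and in females 0.01 ± 0.11. A second, dim probe set of uqcrc2a gave -0.16 ± 0.26 in males, and the mean over both gave 0.06. For uqcrc2b the difference was 0.20 ± 0.13 in males and 0.04 ± 0.14 in females.

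The core protein gene uqcrc1 gave 11.73, 11.60, 11.53 and 11.77 in females on selenium, against 11.77, 11.92 and 11.78 in females on the control diet. As deposited, the groups did not overlap, by less than 0.01 log2 units at the nearest fish. Its log2 difference was -0.17 ± 0.09 in females and 0.04 ± 0.08 in males. The small subunit gene uqcrb gave 12.63, 12.61, 12.60 and 12.66 in males on selenium, against 12.49, 12.53, 12.50 and 12.45 in males on the control diet. Females gave 12.47, 12.48, 12.51 and 12.53 on selenium, against 12.59, 12.40 and 12.48 on the control diet. As deposited, the male groups did not overlap, selenium being higher, and the female groups did. The uqcrb difference was 0.13 ± 0.06 in males (adjusted p 0.937, limma), against 0.002 ± 0.06 in females. The hinge protein gene uqcrh gave 11.48, 11.52, 11.44 and 11.63 in females on selenium, against 11.64, 11.56 and 11.66 in females on the control diet. Males gave 11.74, 11.70, 11.83 and 11.71 on selenium, against 11.61, 11.73, 11.61 and 11.67 on the control diet. The groups overlapped in both sexes. Among the rest, cyc1, the cytochrome of the complex, gave -0.05 ± 0.08 in females and 0.05 ± 0.07 in males, uqcrh -0.10 ± 0.07 and 0.09 ± 0.06, and the small subunit gene uqcrq -0.003 ± 0.08 and 0.04 ± 0.07.

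Cytochrome c, the soluble carrier between complexes III and IV, was read by cycsb. It gave 12.48, 12.45, 12.34 and 12.33 in females on selenium, against 12.45, 12.52 and 12.49 in females on the control diet. Males gave 12.48, 12.45, 12.53 and 12.53 on selenium, against 12.52, 12.55, 12.42 and 12.55 on the control diet. The groups overlapped in both sexes, and the log2 difference was -0.09 ± 0.06 in females and -0.01 ± 0.06 in males.

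**Figure D3:**
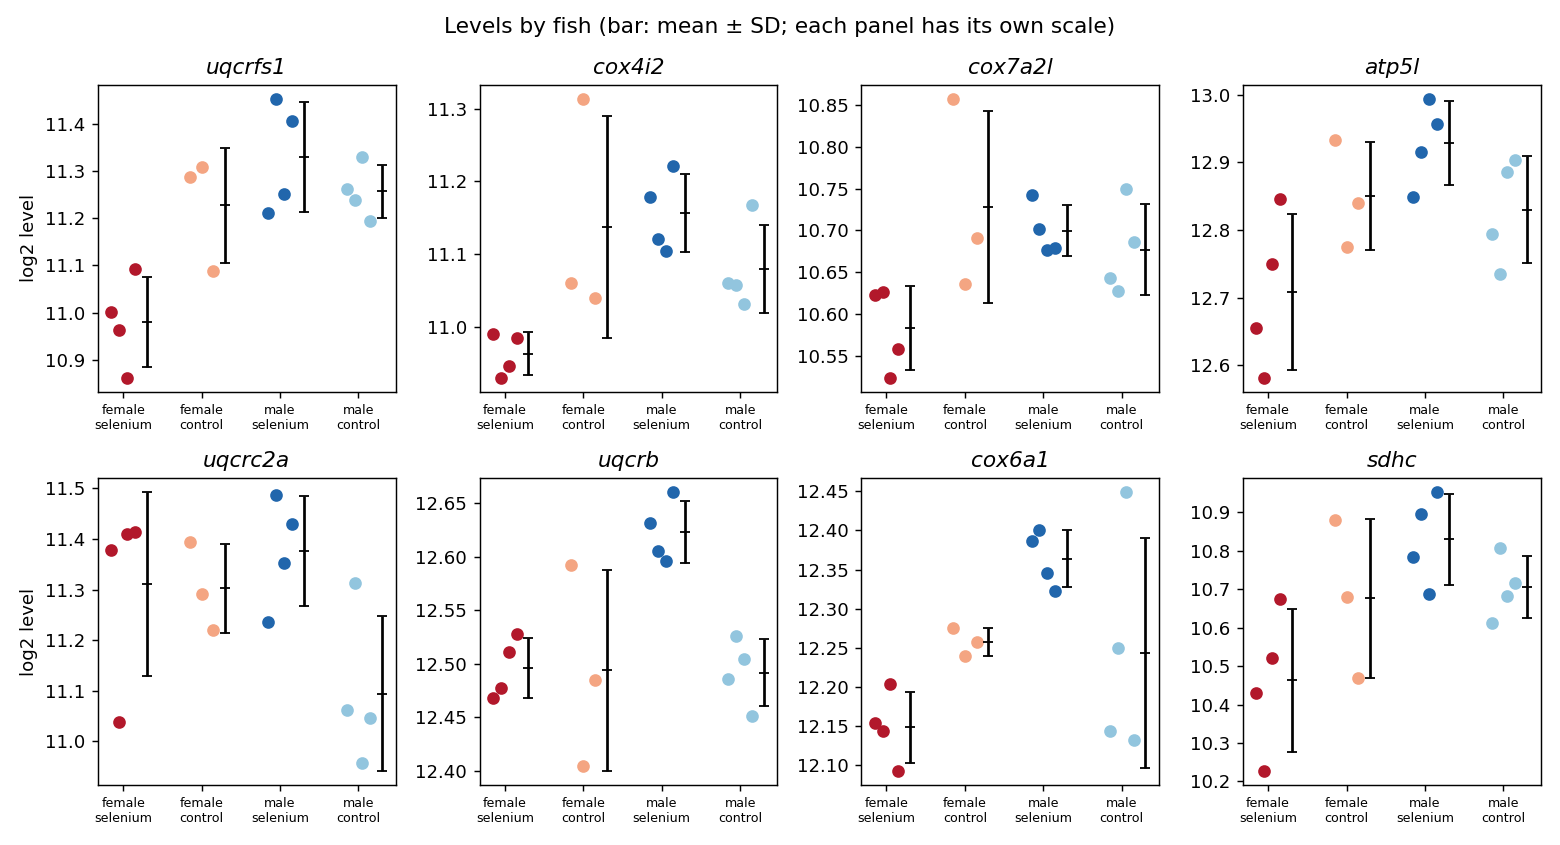
Log2 level of 8 genes in every fish (points) by group, with the group mean ± SD as a bar; each panel has its own scale. As deposited, the 4 females on selenium lie below all 3 controls for cox4i2, cox7a2l and cox6a1. The 4 males on selenium lie above all 4 controls for uqcrb. With arrays centred on their medians, these groups overlap.

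As deposited, in complex IV 12 of 14 genes were lower on selenium in females (median -0.065) and 12 of 14 were higher in males (median 0.044). Centring arrays adds 0.061 to every gene in females, which takes several of these genes above 0 and leaves the median near 0. The isoform gene cox4i2, which in mammals is a low-oxygen form of a regulatory subunit, gave 10.99, 10.93, 10.95 and 10.98 in females on selenium, against 11.06, 11.31 and 11.04 in females on the control diet. In males it gave 11.18, 11.12, 11.10 and 11.22 on selenium, against 11.06, 11.06, 11.03 and 11.17 on the control diet. As deposited, its female groups did not overlap, and the male groups did. The log2 difference was -0.17 ± 0.07 in females and 0.08 ± 0.07 in males, and their difference was -0.25 ± 0.10 (adjusted p 0.569, limma). Without female control fish 2 the female difference was -0.087.

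The supercomplex factor gene cox7a2l, whose product in mammals links complexes III and IV, gave 10.62, 10.63, 10.52 and 10.56 in females on selenium, against 10.86, 10.64 and 10.69 in females on the control diet. Males gave 10.74, 10.70, 10.68 and 10.68 on selenium, against 10.64, 10.63, 10.75 and 10.69 on the control diet. As deposited, the female groups parted by about 0.01 and the male groups overlapped. Its log2 difference was -0.15 ± 0.07 in females, or -0.081 without female control fish 1, and 0.02 ± 0.06 in males.

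The gene cox6a1, the form of its subunit that mammals use outside heart and muscle, gave 12.15, 12.14, 12.20 and 12.09 in females on selenium, against 12.28, 12.24 and 12.26 in females on the control diet. Levels in males were 12.39, 12.40, 12.35 and 12.32 on selenium, against 12.14, 12.25, 12.45 and 12.13 on the control diet. As deposited, the female groups did not overlap, and male control fish 3 was above every male on selenium. Its log2 difference was -0.11 ± 0.08 in females and 0.12 ± 0.07 in males, and 0.19 in males without control fish 3.

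Of the remaining complex IV genes, cox4i1l, named as like the common form of the same subunit as cox4i2, had the widest interval, at -0.55 ± 0.31 in females and -0.07 ± 0.29 in males. The duplicated genes cox5aa and cox5ab differed by -0.05 ± 0.06 and -0.10 ± 0.11 in females, and by 0.03 ± 0.06 and 0.08 ± 0.10 in males. For cox6b1 and cox6b2, whose products face the intermembrane space, the differences were -0.05 ± 0.08 and 0.004 ± 0.07 in females and 0.04 ± 0.07 and 0.04 ± 0.06 in males. The gene cox7b gave 13.10, 13.01, 13.02 and 13.03 in males on selenium, against 13.00, 13.00, 12.97 and 12.98 in males on the control diet. These deposited values did not overlap, but the difference was only 0.06 ± 0.06. The gene cox7a2a, a small subunit in the form found in most mammalian tissues, gave 12.36, 12.39, 12.40 and 12.50 in females on selenium, against 12.46, 12.35 and 12.47 in females on the control diet. Males gave 12.51, 12.56, 12.65 and 12.53 on selenium, against 12.54, 12.54, 12.53 and 12.51 on the control diet. The diets overlapped in both sexes. Its fellow small subunit gene cox8a gave 11.84, 11.97, 11.89 and 11.85 in females on selenium, against 12.01, 11.80 and 12.07 in females on the control diet. Males gave 12.06, 12.01, 12.12 and 12.05 on selenium, against 11.99, 12.09, 12.02 and 11.98 on the control diet, again with overlap. The small subunit genes cox5ba, cox6c, cox7a2a, cox7c and cox8a differed by between -0.09 and 0.003 in females and between -0.01 and 0.08 in males.

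As deposited, the groups did not overlap in females for 4 of the 47 members, all lower on selenium (cox4i2, cox6a1, cox7a2l and uqcrc1). Of all genes, 3.26% were lower without overlap and 3.49% higher. In males the groups did not overlap for 2 members, both higher on selenium (uqcrb and cox7b). There 1.84% of all genes were higher without overlap and 2.66% lower. With arrays centred on their medians, the groups overlapped for each of these genes. How many members and genes did not overlap was not counted with arrays centred.

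As deposited, in complex V 14 of 18 genes were lower on selenium in females (median -0.038) and 16 of 18 were higher in males (median 0.064). Centring arrays adds 0.061 to every gene in females, which takes the female median above 0. The beta subunit gene atp5f1b, for the catalytic part of the head, differed by -0.04 ± 0.06 in females and 0.03 ± 0.06 in males. The rotor genes atp5f1c, atp5f1d and atp5f1e differed by -0.04 ± 0.06, -0.09 ± 0.06 and -0.05 ± 0.08 in females, and by 0.04 ± 0.06, 0.07 ± 0.06 and 0.08 ± 0.07 in males. The genes of the membrane ring that turns with the proton flow, atp5mc1, atp5mc3a and atp5mc3b, encode the same small ring subunit. They did not share a direction, at -0.12 ± 0.07, 0.05 ± 0.07 and 0.14 ± 0.16 in females and 0.06 ± 0.07, -0.07 ± 0.07 and 0.03 ± 0.15 in males.

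The stalk genes atp5pb, atp5pd and atp5pf, which hold the head still against the membrane part, differed by -0.03 ± 0.07, -0.06 ± 0.08 and -0.02 ± 0.07 in females, and by 0.06 ± 0.06, 0.08 ± 0.08 and 0.10 ± 0.07 in males. Of these, atp5pf gave 13.02, 13.06, 13.13 and 13.11 in males on selenium, against 12.98, 13.06, 13.00 and 12.88 in males on the control diet. Females gave 12.91, 12.93, 13.05 and 13.14 on selenium, against 13.11, 12.96 and 13.01 on the control diet. Male control fish 2 lay inside the male selenium range and the other 3 male controls below it, and the female groups overlapped.

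The small membrane subunit gene atp5l had the smallest p of complex V in females. It gave 12.66, 12.58, 12.75 and 12.85 in females on selenium, against 12.93, 12.77 and 12.84 in females on the control diet. Levels in males were 12.85, 12.92, 12.99 and 12.96 on selenium, against 12.79, 12.74, 12.89 and 12.90 on the control diet. The groups overlapped in both sexes. Its difference was -0.14 ± 0.08 in females and 0.10 ± 0.07 in males. A second, dim probe set of atp5l with a mean level of 4.50 gave 0.38 ± 0.15 in females and 0.32 ± 0.14 in males. In females the mean over both probe sets was 0.12. Of the other small membrane genes, atp5md, atp5mf and atp5mj differed by -0.05 ± 0.11, 0.06 ± 0.08 and -0.0004 ± 0.07 in females, and by 0.07 ± 0.10, 0.07 ± 0.07 and 0.07 ± 0.07 in males. The inhibitor genes atp5if1a and atp5if1b, whose products stop the enzyme from running backwards, gave -0.05 ± 0.18 and 0.01 ± 0.07 in females and 0.15 ± 0.17 and 0.04 ± 0.06 in males.

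The duplicated genes atp5mea and atp5meb, for another small membrane subunit, had unlike spreads. In females atp5mea stood at 11.56, 10.20, 11.49 and 11.66 on selenium, against 11.88, 11.86 and 10.47 on the control diet. In males it stood at 10.36, 10.30, 10.63 and 10.66 on selenium, against 10.56, 10.19, 11.71 and 10.14 on the control diet. The fish fell at either of 2 levels, with no value between 10.66 and 11.49, and the 6 fish above that gap were 5 of the 7 females and 1 of the 8 males. Its diet differences were -0.18 ± 0.44 in females and -0.16 ± 0.40 in males. The partner gene atp5meb ran from 11.34 to 11.68 over all fish, with differences of -0.02 ± 0.08 in females and 0.01 ± 0.07 in males.

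**Figure D4:**
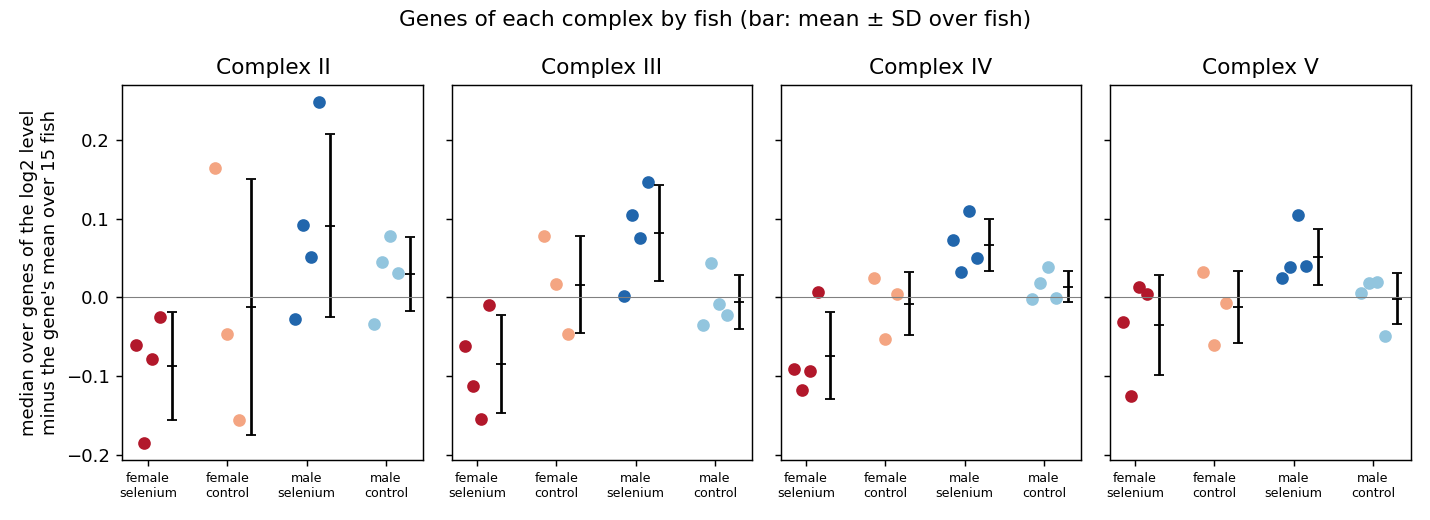
Median over the genes of a complex of the log2 level minus the gene's mean over 15 fish, 1 point per fish, by group, with the group mean ± SD as a bar. As deposited, in complexes II to V the males on selenium have the highest mean and the females on selenium the lowest. With arrays centred on their medians the median diet difference over members in females becomes 0.015.

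The diet effect in females minus that in males asks whether the sexes differ. It was below 0 for 44 of 47 members (93.6%, against 48.7% of all genes), with a median of -0.0996. At an unadjusted p under 0.05, 5 members were below 0 and 0 above, where 4.37% of all genes were below and 4.15% above. No member had an adjusted p under 0.05 in limma, and the smallest was 0.551. With arrays centred on their medians the median was -0.020, with 28 members below 0, while the median of all genes was 0.086. Of the 5 members, uqcrfs1, cox4i2, atp5l and sdhc then had an unadjusted limma p of 0.056, 0.119, 0.136 and 0.132. As deposited, the median by complex was -0.026 in II, -0.175 in III, -0.107 in IV and -0.087 in V. In these values all 8 genes of III and all 14 of IV were below 0. Centring adds 0.079 to every gene, which puts uqcrq of III and cox5ba of IV, among others, above 0. As deposited, the largest in size after sdhc and cox4i1l (-0.49 ± 0.43) was that of uqcrfs1, at -0.32 ± 0.12 (adjusted p 0.551). The members above 0 as deposited were sdhaf2 (0.26 ± 0.53), atp5mc3a (0.12 ± 0.10) and atp5mc3b (0.11 ± 0.22). This comparison is built from the same fish as both diet effects and is not a separate line of evidence.

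Counted gene by gene, 30 members were lower on selenium in females and higher in males, where 27.2% of all genes were, but with arrays centred on their medians 14 were, where 17.3% of all genes were. As deposited, a further 6 were lower in both sexes and 10 higher in both, and atp5mc3a alone was higher in females and lower in males. With arrays centred, 25 were higher in both sexes, where 26% of all genes were. With both sexes weighted equally, 23 members were higher and 24 lower as deposited, where 48.8% of all genes were higher, with a median of -0.001. Centring gave 34 higher and 13 lower, with a median of 0.020, against 0.019 over all genes, so the members did not stand apart. A second quantile normalisation gave 30 and 17, and the gapdh covariate 31 and 16, with no share of all genes at hand for either. In that mean 1 member had an unadjusted p under 0.05, sdhaf2, which was higher, where 2.41% of all genes were higher and 2.49% lower by that rule.

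The order of the 4 groups depended in part on the scaling. As deposited, the lowest group mean was that of females on selenium for 31 members, against 26.1% of all genes, and the highest that of males on selenium for 37 members, against 23% of all genes. Both held for 26 members, against 11.4% of all genes. With arrays centred on their medians, females on selenium were lowest for 17 members (18.2% of all genes) and males on selenium were highest for 34 (19.7% of all genes). Both then held for 13 members (7.82% of all genes). As deposited, the range of the 4 group means had a median of 0.135 and was under 0.25 for 38 members, and neighbours in this order were not tested against each other beyond the comparisons given.

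**Figure D5:**
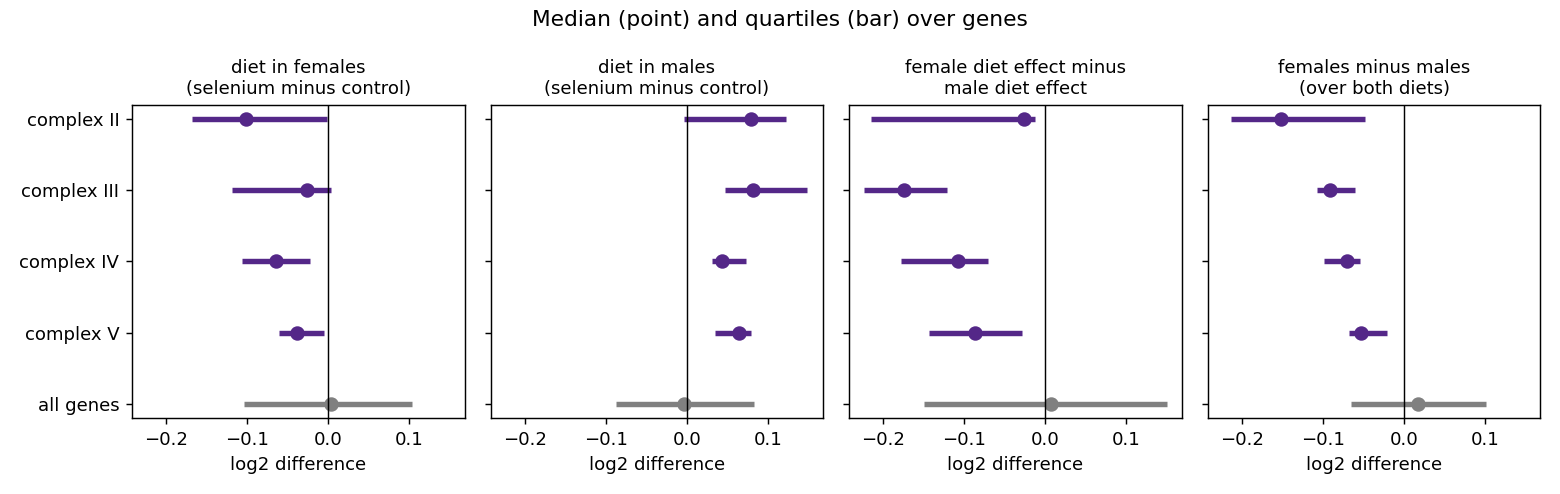
Median (point) and quartiles (bar) of the log2 difference over the genes of each complex and over all 8793 genes, for the diet effect in females, in males, their difference, and females minus males. The complexes lie at or left of 0 in all panels but that of males; the female panel moves right by 0.061 and the difference panel by 0.079 when arrays are centred on their medians.

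Averaged over both diets, most members were slightly lower in females than in males. Of the 47 members, 42 were lower in females (89.4%, against 44.2% of all genes), with a median of -0.067, or -0.063 with arrays centred. On the selenium diet alone 43 members were lower in females (median -0.113, against 0.022 over all genes), and on the control diet alone 31 were (median -0.019, against 0.013 over all genes). Of all genes, 44.5% were lower on the selenium diet and 46% on the control diet. With arrays centred, 40 were lower on the selenium diet (median -0.070, against 0.066) and 38 on the control diet (median -0.054, against -0.022). The shares of all genes were then 35.7% on the selenium diet and 56.5% on the control diet. As deposited, the sex difference was thus larger between the selenium groups, which is the difference between the diet effects given above. Over both diets the median was -0.152 in complex II, -0.091 in III, -0.070 in IV and -0.053 in V. No member was called in limma (smallest adjusted p 0.161), where 0.171% of all genes were. At an unadjusted p under 0.05, 8 members were lower and 1 higher in females, where 5.88% of all genes were lower and 9.13% higher.

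As deposited, the complex IV gene cox7a2a was the only member whose sexes did not overlap. Of all genes, 0.239% were lower in females without overlap and 0.148% higher. The gene ran from 12.35 to 12.50 in the 7 females (median 12.40) and from 12.51 to 12.65 in the 8 males (median 12.54). With arrays centred on their medians, the sexes overlapped for cox7a2a as well. Females and males differed by -0.13 ± 0.04 (adjusted p 0.182, limma). The range of uqcrfs1 was 10.86 to 11.31 in females (median 11.09) and 11.19 to 11.45 in males (median 11.26), with a difference of -0.19 ± 0.06 (adjusted p 0.161). For uqcrh it was 11.44 to 11.66 in females (median 11.56) and 11.61 to 11.83 in males (median 11.70), a difference of -0.13 ± 0.05 (adjusted p 0.201). The gene cox8a ran from 11.80 to 12.07 in females (median 11.89) and from 11.98 to 12.12 in males (median 12.03), a difference of -0.12 ± 0.05. The sexes overlapped for these 3 genes. Opposite to most, atp5mea was 0.75 ± 0.30 higher in females (adjusted p 0.264). The sex comparison uses the same fish as the diet comparisons, and females on selenium are part of it.

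As deposited, most other mitochondrial lists leaned higher on selenium in males, as the members did, but in females several were split about evenly. For diet, limma called 0 genes of these lists at an adjusted p under 0.05. Complex I feeds the chain from NADH, and 31 genes were taken for it by symbol, ndufa4a and ndufa4b by their names alone. Of these 31 genes, 20 were lower on selenium in females (median -0.036) and 26 higher in males (median 0.075). At an unadjusted p under 0.05, 1 of them was lower in females and 3 were higher in males. Of all genes, 4.5% were lower in females and 2.71% higher in males by that rule. The 22 assembly factor genes were split 11 to 11 in females (median -0.010), and 20 were higher in males (median 0.117), with 2 lower in females and 5 higher in males at that p. Of 13 citric acid cycle genes, 7 were lower in females (median -0.018) and 11 higher in males (median 0.098), with 2 and 4 at that p. The 13 include sdhb, described above with complex II, which is among the genes at that p in both sexes. The 6 carrier and channel genes were split 3 to 3 in females (median 0.062) and all higher in males (median 0.0999). Of these, slc25a4, an ATP exchanger also abundant in muscle, differed by 0.59 ± 0.59 in females and 1.77 ± 0.55 in males. Of 9 genes of mitochondrial biogenesis, 6 were lower in females (median -0.161) and 5 higher in males (median 0.013). All these list values are as deposited. Centring arrays adds 0.061 to every gene in females. This takes the female medians of complex I, the assembly factors and the citric acid cycle above 0. Of 868 other genes with a mean level above 11, as bright as most members, 46.9% were higher in females and 40% in males, a limit chosen after values were seen.

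Markers of other tissues differed between the diet groups as well, with no marker called for diet in limma. At an unadjusted p under 0.05, 14 muscle and 6 retina and lens markers were higher in males, where 2.71% of all genes were. In females 0 of either were, where 3.41% of all genes were higher. All 21 muscle markers were higher on selenium in males (median 1.44) and 17 of 21 in females (median 0.41), and 13 of 14 retina and lens markers were higher in males. All 7 radial glia and astrocyte markers were lower on selenium in males (median -0.116), with list means of 11.46 to 11.57 in males on selenium, against 11.60 to 11.68 in males on the control diet. The part of these lists in the members' shift was not tested beyond leaving out fish and adding covariates for muscle and retina. Without the 4 fish of highest retina means 39 members were higher in males (median 0.062), and without the 2 males of highest muscle means 36 (median 0.051). Each setting kept 2 selenium males, fish 1 and 3 in the first and fish 2 and 4 in the second. Fish 1 and 3 had muscle means of 9.32 and 7.53, and fish 2 and 4 retina means of 8.18 and 7.43. Neither setting thus held a selenium male low in both lists, so the part of these markers cannot be read from them. Without the retina fish the median was -0.049 in females (35 lower), -0.12 for the female minus male effect and -0.052 between the sexes. Without the muscle fish, none of them female, it was -0.101 for the female minus male effect and -0.060 between the sexes. With both list means as covariates 45 were higher (median 0.13). Muscle isoforms cox6a2, cox7a1 and cox8b are not analysed here. The 3′ minus 5′ difference of the gapdh control probe sets, a measure of RNA quality, was 1.59 ± 0.24 in females on selenium, against 1.19 ± 0.37 in females on the control diet (SD, exact permutation p 0.143, two-sided). It was 0.93 ± 0.21 in males on selenium, against 1.04 ± 0.16 in males on the control diet (exact permutation p 0.486), and the smallest p these designs allow is 0.0286. For the acta1 control probe sets, an actin of skeletal muscle, the same difference was 4.31 ± 0.56 in females on selenium, against 3.35 ± 0.06 in females on the control diet, without overlap (exact permutation p 0.0571). In males it was 5.19 ± 2.14 on selenium, against 3.71 ± 0.15 on the control diet (exact permutation p 0.143). The muscle means of the female groups did not overlap either, at 6.36 to 6.78 against 5.82 to 6.18. Male selenium fish 1 was highest in both, with an acta1 difference of 8.18 and a muscle mean of 9.32. Male selenium fish 4 had the lowest acta1 difference, 3.09, with a muscle mean of 6.31. How far the acta1 difference reads RNA quality or muscle content was not tested. With the gapdh difference as a covariate the members' median was -0.038 in females and 0.058 in males.

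Within groups, pairs of members varied together to a modest degree. Within complexes II and IV the correlation was no higher than over all members. Across the 15 fish, after removing group means, the median correlation between pairs of members was 0.159 (1081 pairs), against 0.010 over pairs of all genes. It was 0.048 within complex II, 0.179 within III, 0.147 within IV, 0.272 within V and 0.283 within the list of complex I. All pairs share the same 15 arrays and their normalisation, so this is a description.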

How the data were processed

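The authors deposited 1 log2 value per probe set and array, from RMA in the affy software per the submitters' processing notes. Not given in the sources used here: tool versions and which arrays were normalised together. No scaling was added. Of 15617 probe sets, 115 control probe sets were left out. Of the 15502 tested, 10795 had 1 symbol, 135 several and 4572 none, and the symbols named 8793 genes, 1539 of them with more than 1 probe set, read by the brightest. No filter on low signal was applied.

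In limma 3.58.1 under R 4.3.3, 1 linear model with a mean per group took all 15 arrays (11 residual degrees of freedom), with Benjamini-Hochberg adjustment over all probe sets tested, two-sided, and was tested on simulated data. No label gave a batch. Labels do not say outright whether fish were pooled or shared tanks, and p-values measure the spread between arrays, each taken as 1 fish. The number of fish limits the precision.

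Members, lists and rules were chosen with earlier results of these data known. Values of every fish are given for the 3 members of smallest p per comparison and the member of smallest p per complex. They are also given for cox4i2, cox6a1, cox7a2a and cox8a. Up to 3 genes of smallest p of other lists could be named, without values of each fish. Fish values of sdha, atp5mea, uqcrc1 (females only) and cox7b (males only) were added after their values were seen. Marker lists covered skeletal muscle, retina and lens, erythrocytes, neurons, oligodendrocytes, radial glia and microglia. Alternatives were array centring, a second quantile normalisation, a filter on dim probe sets, the mean over probe sets, trended robust variances, 1 sex alone, covariates, and leaving out each fish. Leaving out fish of highest retina or muscle means was added after seeing the data.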

Additional observations from a re-analysis of the deposited data

Results flagged for a closer look

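In 141 groups of 4 fish (47 genes in 3 groups), the value farthest from its neighbours was compared with Dixon's 95% limit for 4 values, and 5 groups passed it, where chance passes about 5%. Female selenium fish 2 was low for atp5f1c at 12.1, against 12.24 to 12.26 in the other 3 fish of its group. The same fish was low for uqcrc2a at 11.04, against 11.38 to 11.41, and for atp5mea at 10.2, against 11.49 to 11.66. Male control fish 1 was low for cox4i1l at 9.297, against 10.15 to 10.28 in the other 3. Male selenium fish 2 was low for cox5ba at 12.85, against 12.97 to 12.99 in the other 3. Without female selenium fish 2 the members' median in females was -0.026.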

How the results depend on the processing

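No member was called in any of the 5 comparisons under any alternative run. Centring arrays on their medians gave a members' median of 0.015 for the diet in females and of -0.020 for the female minus male effect; this alternative adds a constant to all genes. Muscle and retina means as covariates gave 0.13 in males, 0.049 over both sexes and -0.18 for the female minus male effect; the cause was not tested. For atp5l in females the mean over probe sets was 0.12, the dim probe set running the other way. Leaving out each fish in turn gave medians of -0.065 to -0.024 in females, 0.045 to 0.062 in males, -0.0082 to 0.0098 over both sexes, -0.14 (without female control fish 2) to -0.074 for the female minus male effect and -0.073 to -0.056 between the sexes. The sex median stayed between -0.085 and -0.052 under the other alternatives. No paired analysis was possible because no number is shared between fish of different groups. With 3 or 4 fish a group, intervals of about 0.16 to either side in females exceed most differences described, so small effects are not detectable here.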

Other observations

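Marker lists of brain and blood cells were compared between the diets in the same way. Of 8 neuron markers, 5 were lower on selenium in females (median -0.030) and 6 in males (median -0.032). All 7 radial glia and astrocyte markers were lower on selenium in males (median -0.116), with list means of 11.51 ± 0.05 in males on selenium, against 11.65 ± 0.04 in males on the control diet (SD), and without overlap. In females 5 of 7 were higher (median 0.027). All 4 oligodendrocyte markers were lower in females (median -0.073) and 3 of 4 in males (median -0.046). All 4 erythrocyte markers were lower in females (median -0.443) and 3 of 4 in males (median -0.041). Of 5 microglia and leukocyte markers, 4 were higher in females (median 0.119) and 3 in males (median 0.074). The 2 lower in males differed by more, ptprc by -0.46 ± 0.35 and coro1a by -0.36 ± 0.28. The list mean in males was 7.52 on selenium, against 7.63 on the control diet. None of these markers was called for diet in limma at an adjusted p under 0.05, and sox2 and glula in males (-0.27 ± 0.12 and -0.18 ± 0.07, adjusted p 0.937) were among those with an unadjusted p under 0.05.

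Among mitochondrial genes outside complexes II to V, the complex I gene ndufc1 differed by 0.42 ± 0.11 in males (adjusted p 0.937) and the citric acid cycle gene idh3b by -0.29 ± 0.07 in females (adjusted p 0.377). The gene yy1a, which codes for a transcription factor, differed by 0.36 ± 0.10 in females (adjusted p 0.440) and -0.19 ± 0.09 in males (adjusted p 0.937).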
